A study of Mus musculus with 60 samples.

Results

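The synaptic vesicle release machinery was taken as 68 protein-coding genes, of 55414 genes in the deposited table. They were chosen by symbol as the synaptotagmins, syntaxins, syntaxin binding proteins, VAMPs, complexins, synapsins, SNAP proteins, Rab3 GTPases, RIMs and Munc13 proteins. Syt6 and Cplx3, of the same families, were left out. The rule uses no measured value, but the members were chosen with earlier results of these data known. The mice were of the inbred strain DBA2/J and expressed GFP fused to the ribosomal protein L10a, and the series describes 5 days of social defeat as the stress. The tissue was medial prefrontal cortex (mPFC). Ribosomes pulled down with an antibody against GFP gave the IP libraries, labelled aPVT projector, and bulk mPFC with no antibody gave the Input libraries. Each fraction held 5 groups, namely the subtypes SA, SA:ANH, ANH and RES and the further group NS, with 6 libraries per group and 60 in all. The labels do not spell these names out, do not say which groups were defeated, and do not say what drives the tagged protein.

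Library totals lay between 19078928 and 27073456 counts. Nothing in the labels ties the 6 libraries of a group to separate animals, so each p covers library-to-library spread only, and that spread may be technical. Levels are CPM, counts scaled to library size, on a single scale for all 60 libraries, and a range runs over the 6 libraries of a group. Log2 fold changes are given ± SE from the quasi-likelihood test of edgeR, adjusted p are Benjamini-Hochberg values over all genes tested, and a gene was called at an adjusted p of 0.05 or below. In bulk samples fewer cells of a type and less RNA per cell cannot be told apart. The cell type label was checked against markers: 6 markers of excitatory neurons summed to 4165 to 5782 CPM over the IP libraries and 3045 to 3726 CPM over the Input libraries. The sum of 8 microglial markers was 5.54 to 13.2 CPM in IP and 359.7 to 439 CPM in Input. Of the cortical projection neurons, 7 markers of layer 5 extratelencephalic neurons summed to 859.8 to 1638 CPM in IP and 711.7 to 810.7 CPM in Input. The sum of 6 markers of layer 6 corticothalamic neurons was 44.2 to 89.1 CPM in IP and 300.2 to 383 CPM in Input. Syt6 and Cplx3, left out of the members, are among these 6 markers. Myelin markers set the IP groups apart, with 8 oligodendrocyte genes summing to 211 to 236 CPM in SA, 148 to 178 in SA:ANH, 661 to 694 in ANH, 958 to 1075 in RES and 246 to 294 in NS. Along the first principal component of Input, SA:ANH replicates 1 and 2 and ANH replicates 5 and 1 lay farthest out on one side, with NS replicate 4 farthest on the other. Input calls of SA:ANH and ANH that did not pass without these replicates of their own, an alternative chosen after the data were seen, are marked. The replicates left out were those farthest from NS, and no NS library was left out. This choice itself favours weaker calls, so a lost call cannot show that a result is fragile.

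Neurotransmitter release rests on SNARE proteins, in which the vesicle protein Vamp2 zippers with Snap25 and a syntaxin of the plasma membrane such as Stx1a. Munc13 proteins prepare that assembly, complexins grip the assembled complex, and synaptotagmins trigger fusion when calcium enters, with Syt1 the fast sensor of forebrain neurons. RIMs and Rab3 GTPases hold vesicles at the active zone, and synapsins keep the reserve pool clustered behind it. Several members of these families, such as Stx5a, Stx8 or Vamp8, serve Golgi, endosomal or secretory traffic outside the synapse, and Snap91 is the clathrin assembly protein AP180 and no SNARE.

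Of the 68 members, 52 had a promoter in the RefSeq table of GRCm38.p6, 300 bases around the start, and 10 of these had several starts. For those 10 only the first listed start was counted. The baseline of all 32851 promoters counts every listed start and was not limited to genes tested here, so the shares are not on like units. The letters GGGCGG, the core of an SP1 site, stood in 39 of the 52 on either strand, against 35.7% of all 32851 promoters of the same length. The EGR motif GCGNGGGCG, which can overlap GGGCGG, stood in 7 of the 52, against 5.55%, and the cyclic AMP response element TGACGTCA in 2 of the 52, against 1.79%. The 4 promoters shown are those of a pair of complexins and a pair of Rab3 genes, in each of which one gene was higher and the other lower in the pulldown than in the tissue: Cplx2 against Cplx1 and Rab3c against Rab3b. Capitals mark GGGCGG or GCGNGGGCG on either strand. Cplx1 held 2 GGGCGG matches and 1 EGR match, Cplx2 held none of the 3 motifs, Rab3c held 1 GGGCGG match and Rab3b held 4.
Cplx2, chr13:54302306-54302605, strand plus: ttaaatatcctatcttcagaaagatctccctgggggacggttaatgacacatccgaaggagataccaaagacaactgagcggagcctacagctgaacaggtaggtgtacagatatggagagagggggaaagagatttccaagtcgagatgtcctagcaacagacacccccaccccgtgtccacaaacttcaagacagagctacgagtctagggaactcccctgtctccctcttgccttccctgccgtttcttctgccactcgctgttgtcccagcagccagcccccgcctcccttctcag
Cplx1, chr5:108549978-108550277, strand minus: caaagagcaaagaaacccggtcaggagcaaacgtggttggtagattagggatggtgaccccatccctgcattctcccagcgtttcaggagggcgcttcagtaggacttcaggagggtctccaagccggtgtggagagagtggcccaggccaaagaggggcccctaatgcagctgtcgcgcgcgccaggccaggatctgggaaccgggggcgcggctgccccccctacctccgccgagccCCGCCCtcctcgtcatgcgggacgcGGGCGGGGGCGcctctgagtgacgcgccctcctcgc
Rab3c, chr13:110280157-110280456, strand minus: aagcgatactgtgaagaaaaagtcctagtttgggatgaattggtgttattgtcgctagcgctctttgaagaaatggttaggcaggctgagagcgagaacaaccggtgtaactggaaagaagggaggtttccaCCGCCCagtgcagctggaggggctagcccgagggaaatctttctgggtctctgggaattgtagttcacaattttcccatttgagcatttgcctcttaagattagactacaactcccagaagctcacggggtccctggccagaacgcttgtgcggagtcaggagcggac
Rab3b, chr4:108878820-108879119, strand plus: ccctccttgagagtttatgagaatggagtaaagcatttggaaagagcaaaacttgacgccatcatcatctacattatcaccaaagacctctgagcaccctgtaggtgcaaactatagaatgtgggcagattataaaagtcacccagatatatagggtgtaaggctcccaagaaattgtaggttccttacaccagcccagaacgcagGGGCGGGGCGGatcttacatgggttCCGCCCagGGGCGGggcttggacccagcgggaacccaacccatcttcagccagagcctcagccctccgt

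Members were abundant genes, with a median of 59.4 CPM over the 61 tested in IP, where all 16670 genes tested had a median of 14.0 CPM, and 52.7 CPM over the 64 tested in Input, where all 18170 had 12.03 CPM. Per length, Vamp2 stood at 979 CPM per kilobase in IP and 703 in Input, Rab3a at 721 CPM per kilobase in IP and 709 in Input, and Snap25 at 682 CPM per kilobase in IP and 477 in Input. Vamp2 was highest of the members in IP and Rab3a in Input, where Snap47, at 536 CPM per kilobase, also stood above Snap25. Among the calcium sensors Syt5 stood at 306 CPM per kilobase in IP and 272 in Input, Syt1 at 239.9 CPM per kilobase in IP and 203 in Input and Syt2 at 0.308 CPM per kilobase in IP and 1.2 in Input. Cplx1, the complexin at 185 CPM per kilobase in IP and 323 in Input, stood above Cplx2, at 66.1 CPM per kilobase in IP and 38.2 in Input. Within a group, the libraries' coefficient of variation had a median over members of 10.1% in IP and 7.56% in Input. At the low end, Cplx4 had 5 counts over the IP and 8 over the Input libraries, Syt8 had 0 and 10, and Stx19 had 78 and 40, and none of the 3 was tested. Vamp9 was tested only in the fit of all 60 libraries, and Vamp5, Syt15 and Stx11 only there and in Input.

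The pulldown was compared with bulk mPFC over 30 libraries each, to see which release genes stood higher or lower in it than in the tissue. Cell type, ribosome binding of the RNA and background of the pulldown cannot be told apart in this comparison. Of 65 members tested, 31 were higher in IP and 24 lower, and 10 did not pass, while 75.4% of all 18937 genes tested were called (32.8% higher and 42.6% lower). The median log2 fold change was 0.10 over the members and -0.084 over all genes. In 17 members the 30 IP and the 30 Input libraries did not overlap, and how many of all genes did so was not counted. The members ran between -4.41 and 1.71, with related genes at opposite ends. Gene coordinates are those of the deposited table, which differ from GRCm38 and come with no stated build.

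The family of Rab3 GTPases held the highest member and one of the lowest. Rab3c (ENSMUSG00000021700.11, chromosome 13, 110190721 to 110417530) was at 216 to 428 CPM (median 310.4) in IP, against 80.4 to 109 CPM (median 94.2) in Input. Rab3b (ENSMUSG00000003411.11, chromosome 4, 108736260 to 108800521) was at 32 to 51.2 CPM (median 41.3) in IP, against 163 to 197 CPM (median 179.8) in Input. Every IP library of Rab3c lay above, and every IP library of Rab3b below, the Input libraries, and the log2 fold changes were 1.71 ± 0.023, adjusted p = 1.21e-56 for Rab3c and -2.09 ± 0.029, adjusted p = 9.86e-57 for Rab3b. Rab3d stood at -0.49 ± 0.078, adjusted p = 9.87e-08, and Rab3a, the main Rab3 of brain vesicles, at 0.025 ± 0.011, adjusted p = 0.0396, a difference whose sign turned to -0.021 with other library scaling.

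Complexins split in the same way. Cplx2 (ENSMUSG00000025867.9, chromosome 13, 54519162 to 54531730) was at 218 to 418 CPM (median 337) in IP, against 152 to 229 CPM (median 189) in Input. Cplx1 (ENSMUSG00000033615.10, chromosome 5, 108666420 to 108697890) was at 337 to 485 CPM (median 395) in IP, against 665 to 769 CPM (median 702) in Input. The Cplx1 libraries of the fractions did not overlap and those of Cplx2 did, with log2 fold changes of 0.78 ± 0.023, adjusted p = 5.73e-39 for Cplx2 and -0.81 ± 0.014, adjusted p = 4.8e-51 for Cplx1.

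Among the vesicle SNAREs, Vamp2 was at 1931 to 2470 CPM (median 2132) in IP, against 1419 to 1712 CPM (median 1546) in Input, and Vamp1, which serves the same step in spinal cord and some interneurons, at 22.9 to 41.2 CPM (median 30.7) in IP, against 67.4 to 102 CPM (median 82.1) in Input. The fractions did not overlap for either, and the log2 fold changes were 0.48 ± 0.011, adjusted p = 1.69e-44 for Vamp2 and -1.42 ± 0.042, adjusted p = 3.11e-38 for Vamp1. Vamp4 of the trans-Golgi network and endosomes stood at 0.77 ± 0.034, adjusted p = 3.67e-29. The VAMPs of non-neuronal secretion stood far lower in IP, Vamp3 at -1.48 ± 0.069, adjusted p = 2.35e-28 and Vamp8 at -3.92 ± 0.14, adjusted p = 1.59e-33, and Vamp5 had 94 counts over all IP libraries, against 1918 over all Input libraries. On the plasma membrane side, Snap25 stood at 0.52 ± 0.014, adjusted p = 7.85e-40, while its ubiquitous relative Snap23 stood at -2.13 ± 0.23, adjusted p = 1.66e-12. Stx1a was close to even, at 0.16 ± 0.015, adjusted p = 1.92e-15. Stx11, a syntaxin of immune cells, had 8 counts in IP and 144 in Input.

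The other syntaxins followed no single direction. Stx6, Stx12, Stx16 and Stx17 were higher in IP, by 0.23 to 0.40 on the log2 scale, Stx2, Stx3, Stx5a and Stx8 were lower, at -0.67 to -0.08, and Stx4a, Stx7 and Stx18 did not pass. Of the syntaxin binding proteins 5 of 7 were higher, led by Stxbp6, the SNARE-binding protein amisyn, at 0.78 ± 0.042, adjusted p = 3.89e-25. The tomosyns Stxbp5 and Stxbp5l, which sequester SNAREs, stood at 0.59 ± 0.045, adjusted p = 2.77e-18 and 0.48 ± 0.051, adjusted p = 1.3e-12. Stxbp4 was higher by 0.34, Stxbp2 did not pass, and Stxbp3, found mainly outside neurons, stood at -1.37 ± 0.11, adjusted p = 2.25e-17. Stxbp3 has a processed pseudogene in the table, so reads shared with that copy make its level uncertain.

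Synaptotagmins were higher in IP in 9 of 15 tested and lower in 4. Syt4, a synaptotagmin of dense core vesicles, was at 322 to 443 CPM (median 383) in IP, against 141 to 178 CPM (median 159) in Input, with no overlap (1.25 ± 0.021, adjusted p = 2.53e-52). Syt7, the slow sensor of asynchronous release, stood at 0.66 ± 0.025, adjusted p = 3.38e-33, Syt17 at 0.66 ± 0.028, adjusted p = 1.45e-30 and Syt1 at 0.24 ± 0.012, adjusted p = 2.94e-26. Syt5, Syt11, Syt12, Syt14 and Syt16 were also higher, by 0.17 to 0.68. The fast sensor Syt2, known from parvalbumin interneurons, was at 0.583 to 5.12 CPM (median 2.08) in IP, against 3.66 to 13.1 CPM (median 8.01) in Input, a log2 fold change of -1.99 ± 0.12, adjusted p = 4.88e-22. Syt9, Syt13 and Syt15 were lower, at -0.26, -0.35 and -1.94, and Syt3 and Syt10 did not pass. Beside the low Vamp1 and Syt2, 8 markers of inhibitory neurons summed to 64.1 to 180.7 CPM over the IP libraries, against 1112 to 1291 CPM in Input, and the part of these cells in the values was not tested.

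Of the priming proteins, the long RIMs were higher in IP, Rims2 at 0.75 ± 0.031, adjusted p = 1.04e-30 and Rims1 at 0.56 ± 0.031, adjusted p = 7.19e-25, whereas Rims4, a short form, stood at -0.15 and Rims3 did not pass. Unc13a, the Munc13 of most cortical synapses, stood at 0.26 ± 0.028, adjusted p = 2.43e-12, Unc13c at -0.83 ± 0.10, adjusted p = 7.44e-11 and Unc13d at -0.43 ± 0.17, adjusted p = 0.0226, and Unc13b did not pass. Of the synapsins, Syn2 stood at 0.37 ± 0.012, adjusted p = 3.68e-36, Syn3 at 0.22 ± 0.091, adjusted p = 0.0269 and Syn1 at -0.065 ± 0.019, adjusted p = 0.00201. Syn3 did not pass with RLE scaling or DESeq2, nor Syn1 and Stx8 without the filter on low counts. Snap91 stood at 0.13 ± 0.017, adjusted p = 8.58e-10 and Snap47 at -0.038 ± 0.015, adjusted p = 0.0195, and Snap29 and Vamp9 did not pass.

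**Figure D1:**
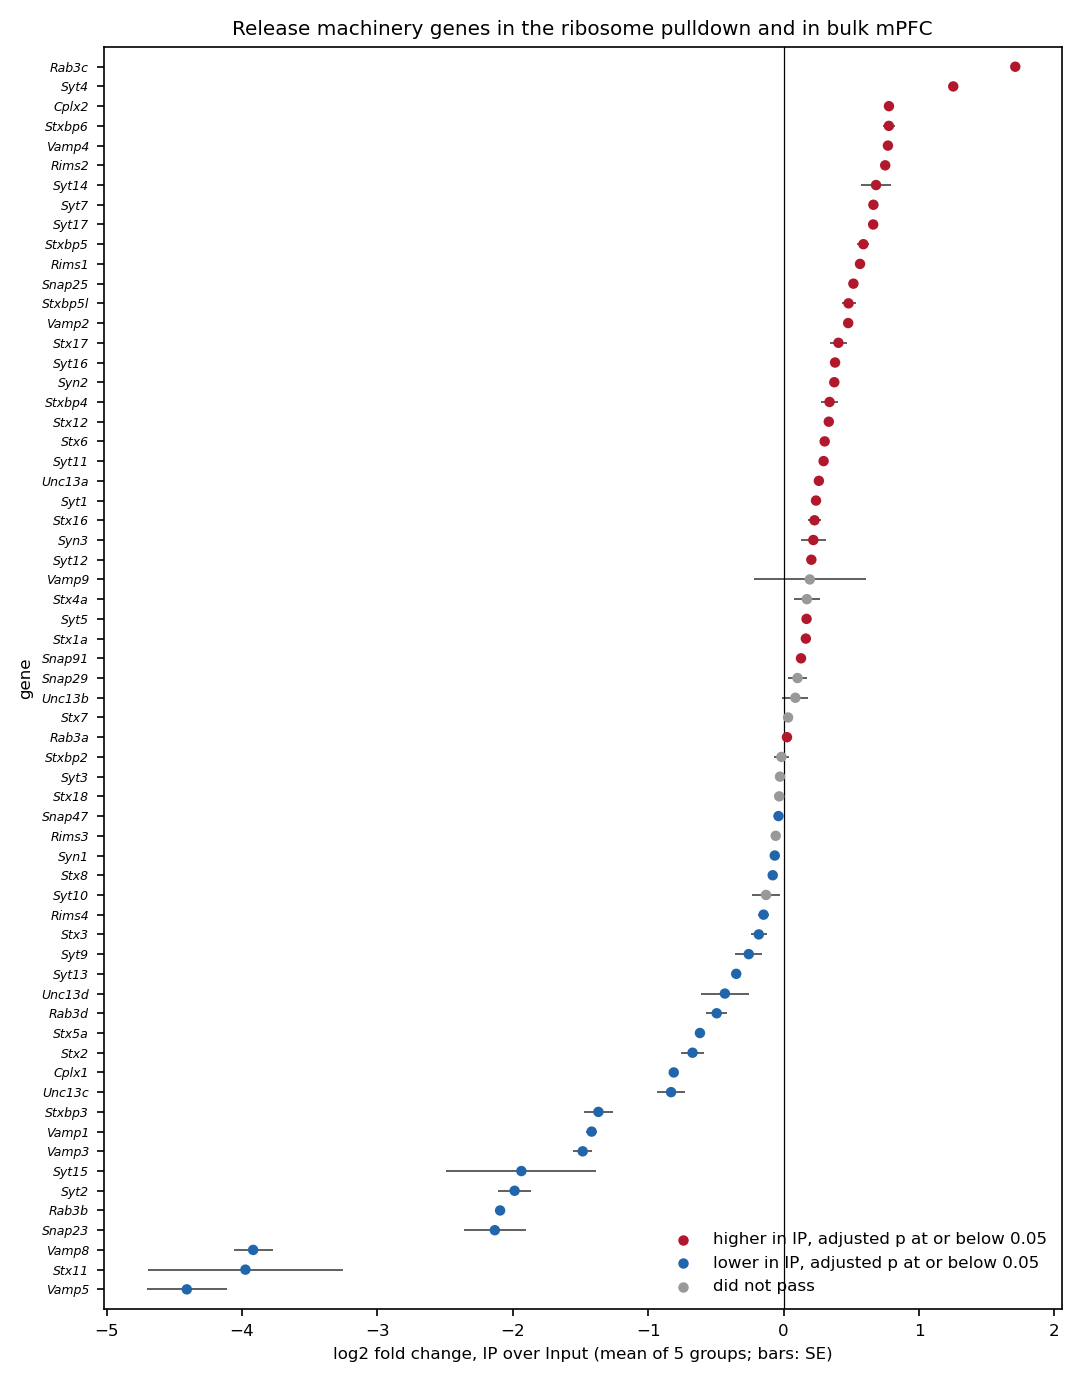
Log2 fold change of IP over Input for 63 of the 65 members tested (x axis, log2; points with SE bars, red higher and blue lower in IP, grey not passed), sorted by size down the y axis. Rab3c at 1.71 and Syt4 at 1.25 lead, while Vamp8, Stx11 and Vamp5 lie near or beyond -4 and Rab3a lies near 0.

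Each subtype was then compared with NS within a fraction, and all 4 comparisons of a fraction share its 6 NS libraries. In IP, 17 of 61 members were called in SA (27.9%, 7 higher and 10 lower), where 16.6% of all 16670 genes tested were called (9.39% higher and 7.2% lower). In SA:ANH 16 members were called (26.2%, 5 higher and 11 lower), beside 19.7% of all genes (11.3% higher and 8.45% lower). In ANH 11 members were called (18.0%, 7 higher and 4 lower), beside 7.4% of all genes (3.02% higher and 4.37% lower). In RES 5 members were called (8.20%, all lower), beside 4.36% of all genes (2.25% higher and 2.11% lower). At an unadjusted p under 0.05, edgeR had 4 members higher and 16 lower in RES. The same counts were 10 and 12 in SA, 6 and 14 in SA:ANH and 13 and 10 in ANH. The share of all genes at that threshold was not counted. At the adjusted threshold DESeq2 called 2 higher and 7 lower in RES, 8 and 11 in SA, 4 and 13 in SA:ANH and 8 and 5 in ANH. Without the filter on low counts 2 members were called in RES, and Snap25, Vamp2 and Syt7 did not pass. The share of all genes called by DESeq2 or without the filter is not given here, so these counts have no baseline. The median log2 fold change of the members stayed between -0.051 in RES and 0.035 in ANH, where the medians of all genes lay between -0.0011 and 0.016. In 12, 11, 6 and 4 members the 6 libraries of SA, SA:ANH, ANH and RES did not overlap with those of NS. The share of all genes without overlap was not counted, so these numbers have no baseline.

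In Input fewer members were called. SA had 5 of 64 (7.81%, 4 higher and 1 lower), beside 2.83% of all 18170 genes tested (1.23% higher and 1.6% lower). SA:ANH had 6 (9.38%, 5 higher and 1 lower), beside 5.65% (2.54% higher and 3.1% lower). ANH had 6 (9.38%, 4 higher and 2 lower), beside 2.62% (1.57% higher and 1.05% lower). RES had 5 (7.81%, all higher), beside 3.23% (1.96% higher and 1.27% lower). In RES edgeR had 14 members higher and 5 lower at an unadjusted p under 0.05. The same counts were 11 and 6 in SA, 11 and 4 in SA:ANH and 13 and 3 in ANH, and the share of all genes was not counted. At the adjusted threshold DESeq2 called 6 higher and 1 lower in RES, SA and SA:ANH each, and 5 and 2 in ANH. Without the filter 3 members were called in SA:ANH and 3 in RES, where Vamp2, Rab3c and Rims3 in SA:ANH and Cplx1 in RES did not pass, nor did Snap25 and Stx6 in ANH. Here too no share of all genes is given for DESeq2 or the fit without the filter. Over both fractions 30 members were called in at least 1 comparison with NS and 38 in none. The 38 include Cplx4, Syt8, Stx19 and Vamp9, which were tested against NS in neither fraction. The share of all genes called at least once was not counted. A test of any difference among the 5 groups called 31 of 61 members in IP, beside 33.1% of all genes, and 16 of 64 in Input, beside 12.9%. The smallest adjusted p fell to Rab3c, Cplx2, Cplx1, Rims3 and Snap25 in IP, at 5.33e-14 to 8.69e-09, and to Snap25, Cplx2, Vamp2, Stx1a and Syt16 in Input, at 9.3e-11 to 0.000265.

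**Figure D2:**
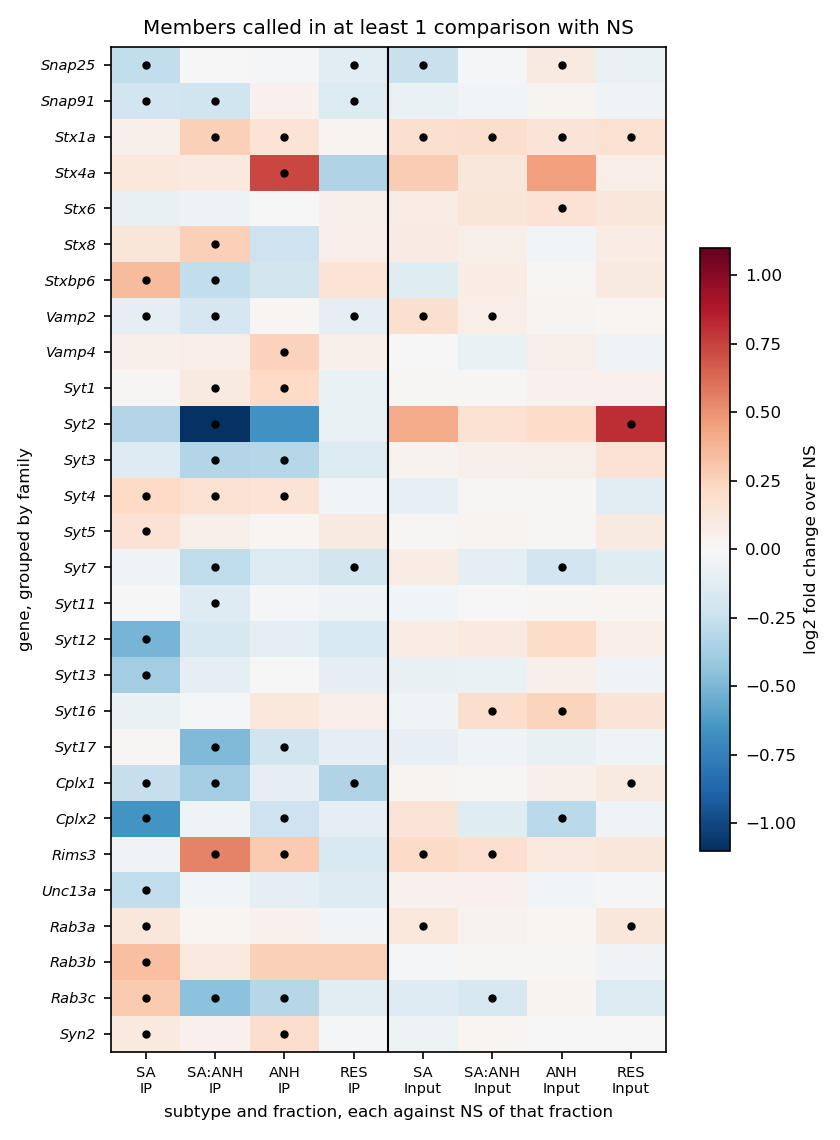
Log2 fold change over NS (colour, red higher and blue lower than NS) for 28 of the 30 members called at least once, by subtype within IP and within Input (columns) and by family (rows). Black dots mark calls: Stx1a has a dot in all 4 Input columns, and Cplx1, Snap91 and Vamp2 have dots on blue in 3 IP columns each.

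Among the core SNAREs, Snap25 (ENSMUSG00000027273.14, chromosome 2, 136555373 to 136624348) was lower in SA in both fractions. Snap25 in IP was at 2730 to 3132 CPM (median 2845) in SA, 3252 to 3838 (median 3410) in SA:ANH, 3397 to 3888 (median 3451) in ANH and 3086 to 3350 (median 3279) in RES. Snap25 in the NS IP libraries was at 3375 to 3693 CPM (median 3520). Snap25 in Input was at 1950 to 2153 CPM (median 2022) in SA, 2251 to 2468 (median 2367) in SA:ANH, 2495 to 2700 (median 2536) in ANH and 2164 to 2426 (median 2273) in RES. Snap25 in the NS Input libraries was at 2343 to 2439 CPM (median 2420). The SA libraries lay below all NS libraries in both fractions, and the log2 fold changes were -0.27 ± 0.031, adjusted p = 4.25e-08 in IP and -0.25 ± 0.026, adjusted p = 4.41e-08 in Input. In RES Snap25 fell in IP (-0.11 ± 0.031, adjusted p = 0.0294) and stood at -0.076 in Input. In ANH it rose in Input (0.096 ± 0.026, adjusted p = 0.0382). That call was lost with RLE scaling, without the filter on low counts and without ANH Input replicates 5 and 1. The values that did not pass in IP were -0.0011 in SA:ANH and -0.0093 in ANH, and in Input -0.025 in SA:ANH.

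Vamp2 (ENSMUSG00000020894.17, chromosome 11, 68979316 to 68983210) was called in opposite directions in the fractions in SA and SA:ANH. Vamp2 in IP was at 2011 to 2189 CPM (median 2077) in SA, 1931 to 2042 (median 1975) in SA:ANH, 2195 to 2470 (median 2329) in ANH and 2037 to 2282 (median 2100) in RES. Vamp2 in the NS IP libraries was at 2209 to 2389 CPM (median 2272). Vamp2 in Input was at 1611 to 1712 CPM (median 1689) in SA, 1552 to 1592 (median 1558) in SA:ANH, 1471 to 1576 (median 1490) in ANH and 1419 to 1557 (median 1515) in RES. Vamp2 in the NS Input libraries was at 1459 to 1511 CPM (median 1489). SA and SA:ANH lay below NS in IP and above NS in Input, each without overlap. In IP the log2 fold changes were -0.11 ± 0.026, adjusted p = 0.00287 in SA, -0.18 ± 0.026, adjusted p = 1.49e-06 in SA:ANH and -0.11 ± 0.026, adjusted p = 0.0128 in RES, with 0.025 in ANH. In Input they were 0.17 ± 0.022, adjusted p = 1.21e-06 in SA and 0.076 ± 0.022, adjusted p = 0.0316 in SA:ANH, with 0.028 in ANH and 0.023 in RES. The SA:ANH call in Input was lost in a fit of the 12 libraries alone and without the filter on low counts. It also did not pass without SA:ANH Input replicates 1 and 2. The difference between the fractions itself passed in SA (-0.31 ± 0.034, adjusted p = 8.09e-10), in SA:ANH (-0.29 ± 0.034, adjusted p = 3.87e-09) and in RES (-0.13 ± 0.034, adjusted p = 0.0244). Vamp1 was called in none of the 8 comparisons, with log2 fold changes of -0.12 in SA, 0.20 in SA:ANH, 0.035 in ANH and 0.091 in RES in IP and 0.12 in SA, 0.023 in SA:ANH, 0.071 in ANH and 0.18 in RES in Input.

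Stx1a (ENSMUSG00000007207.11, chromosome 5, 135052336 to 135079954), the syntaxin partner of Snap25, was higher than NS in Input in every subtype. Stx1a in Input was at 469 to 531 CPM (median 499) in SA, 475 to 528 (median 508) in SA:ANH, 461 to 504 (median 488) in ANH and 483 to 514 (median 493) in RES. Stx1a in the NS Input libraries was at 428 to 469 CPM (median 437). Stx1a in IP was at 508 to 544 CPM (median 522) in SA, 530.4 to 638 (median 611) in SA:ANH, 545 to 610.4 (median 573) in ANH and 496 to 541 (median 525) in RES. Stx1a in the NS IP libraries was at 502 to 524 CPM (median 511). No SA:ANH or RES library overlapped with NS in Input, and SA and ANH overlapped at the edge. The Input changes were 0.18 ± 0.031, adjusted p = 0.000474 in SA, 0.19 ± 0.031, adjusted p = 0.000155 in SA:ANH, 0.14 ± 0.031, adjusted p = 0.0083 in ANH and 0.17 ± 0.031, adjusted p = 0.00096 in RES, and that of ANH did not pass without ANH Input replicates 5 and 1. All 4 rest on the same NS libraries, and the summed oligodendrocyte markers were also higher in all 4, at 3048 to 3146 CPM in SA, 2663 to 2882 in SA:ANH, 4209 to 4356 in ANH, 3619 to 3734 in RES and 2465 to 2612 in NS. Of the 8 single markers, 6 were called higher than NS in Input in SA, 3 in SA:ANH, 7 in ANH and 7 in RES, with 0 lower in each. The part of these markers in the Stx1a values was not tested. In IP Stx1a rose in SA:ANH (0.26 ± 0.038, adjusted p = 2.57e-06) and ANH (0.15 ± 0.038, adjusted p = 0.00782), with 0.053 in SA and 0.033 in RES.

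Among the SNAREs of other traffic, the plasma membrane syntaxin Stx4a was at 27.1 to 44.1 (median 39.7) CPM in ANH and 17.7 to 38 (median 18.8) CPM in NS in IP, a rise of 0.74 ± 0.21, adjusted p = 0.023 in groups that overlapped. Stx4a overlaps a neighbouring gene on the opposite strand, and with no strand setting stated for the counts, reads of that stretch cannot be assigned. Vamp4 also rose in ANH in IP (0.25 ± 0.072, adjusted p = 0.0243), and the endosomal Stx8 rose in SA:ANH in IP (0.26 ± 0.076, adjusted p = 0.0105). The trans-Golgi syntaxin Stx6 rose in ANH in Input (0.16 ± 0.043, adjusted p = 0.0302), a call lost without ANH Input replicates 5 and 1. Snap91 fell in IP in SA (-0.21 ± 0.038, adjusted p = 0.000137), SA:ANH (-0.22 ± 0.038, adjusted p = 5.14e-05) and RES (-0.15 ± 0.038, adjusted p = 0.0141).

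Cplx2, the complexin of most excitatory forebrain neurons, had the largest fall of any member called in SA in IP. Cplx2 in IP was at 218 to 264 CPM (median 229) in SA, 326 to 418 (median 347) in SA:ANH, 299 to 361 (median 316) in ANH and 323 to 362 (median 345) in RES. Cplx2 in the NS IP libraries was at 364 to 385 CPM (median 371). Cplx2 in Input was at 208 to 229 CPM (median 213) in SA, 171 to 193 (median 176) in SA:ANH, 152 to 172 (median 158) in ANH and 167 to 214 (median 192) in RES. Cplx2 in the NS Input libraries was at 184 to 206 CPM (median 196). In IP the SA libraries lay below those of every other group, whereas in Input they lay above all NS libraries. The IP change was -0.66 ± 0.049, adjusted p = 3.32e-12 in SA and -0.23 ± 0.049, adjusted p = 0.00219 in ANH, with -0.045 in SA:ANH and -0.11 in RES. The Input change was -0.30 ± 0.047, adjusted p = 6.89e-05 in ANH, without overlap, with 0.14 in SA, -0.13 in SA:ANH and -0.04 in RES. The fractions differed in SA, by -0.82 ± 0.071, adjusted p = 1.3e-13.

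Cplx1 showed another pattern. Cplx1 in IP was at 369.7 to 409 CPM (median 386) in SA, 341 to 371 (median 358) in SA:ANH, 409 to 468 (median 439.6) in ANH and 337 to 401 (median 372) in RES. Cplx1 in the NS IP libraries was at 442 to 485 CPM (median 472). Cplx1 in Input was at 665 to 752 CPM (median 705) in SA, 683 to 725 (median 693) in SA:ANH, 700 to 736 (median 717) in ANH and 712 to 769 (median 732) in RES. Cplx1 in the NS Input libraries was at 675 to 701 CPM (median 687). The SA, SA:ANH and RES libraries lay below all NS libraries in IP, and the RES libraries above all NS libraries in Input. The IP changes were -0.26 ± 0.038, adjusted p = 4.94e-06 in SA, -0.38 ± 0.038, adjusted p = 2.48e-09 in SA:ANH and -0.33 ± 0.038, adjusted p = 3.06e-07 in RES, with -0.11 in ANH. In Input Cplx1 rose in RES (0.10 ± 0.025, adjusted p = 0.0193), with 0.033 in SA, 0.016 in SA:ANH and 0.06 in ANH. Cplx1 was the member whose fractions differed in all 4 subtypes, by -0.31 ± 0.044, adjusted p = 4.2e-07 in SA, -0.42 ± 0.044, adjusted p = 1.19e-10 in SA:ANH, -0.16 ± 0.044, adjusted p = 0.031 in ANH and -0.43 ± 0.044, adjusted p = 1.3e-10 in RES. In IP the sum of 6 excitatory neuron markers was 4165 to 4717 CPM in SA, 4941 to 5327 in SA:ANH, 4996 to 5746 in ANH, 4743 to 5087 in RES and 5176 to 5782 in NS. Of the 6 single markers, 0 were called higher than NS and 3 lower in SA, and 2 higher and 2 lower in SA:ANH. ANH had 2 higher and 1 lower, and RES 0 higher and 3 lower. The part of this sum in the complexin values was not tested.

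**Figure D3:**
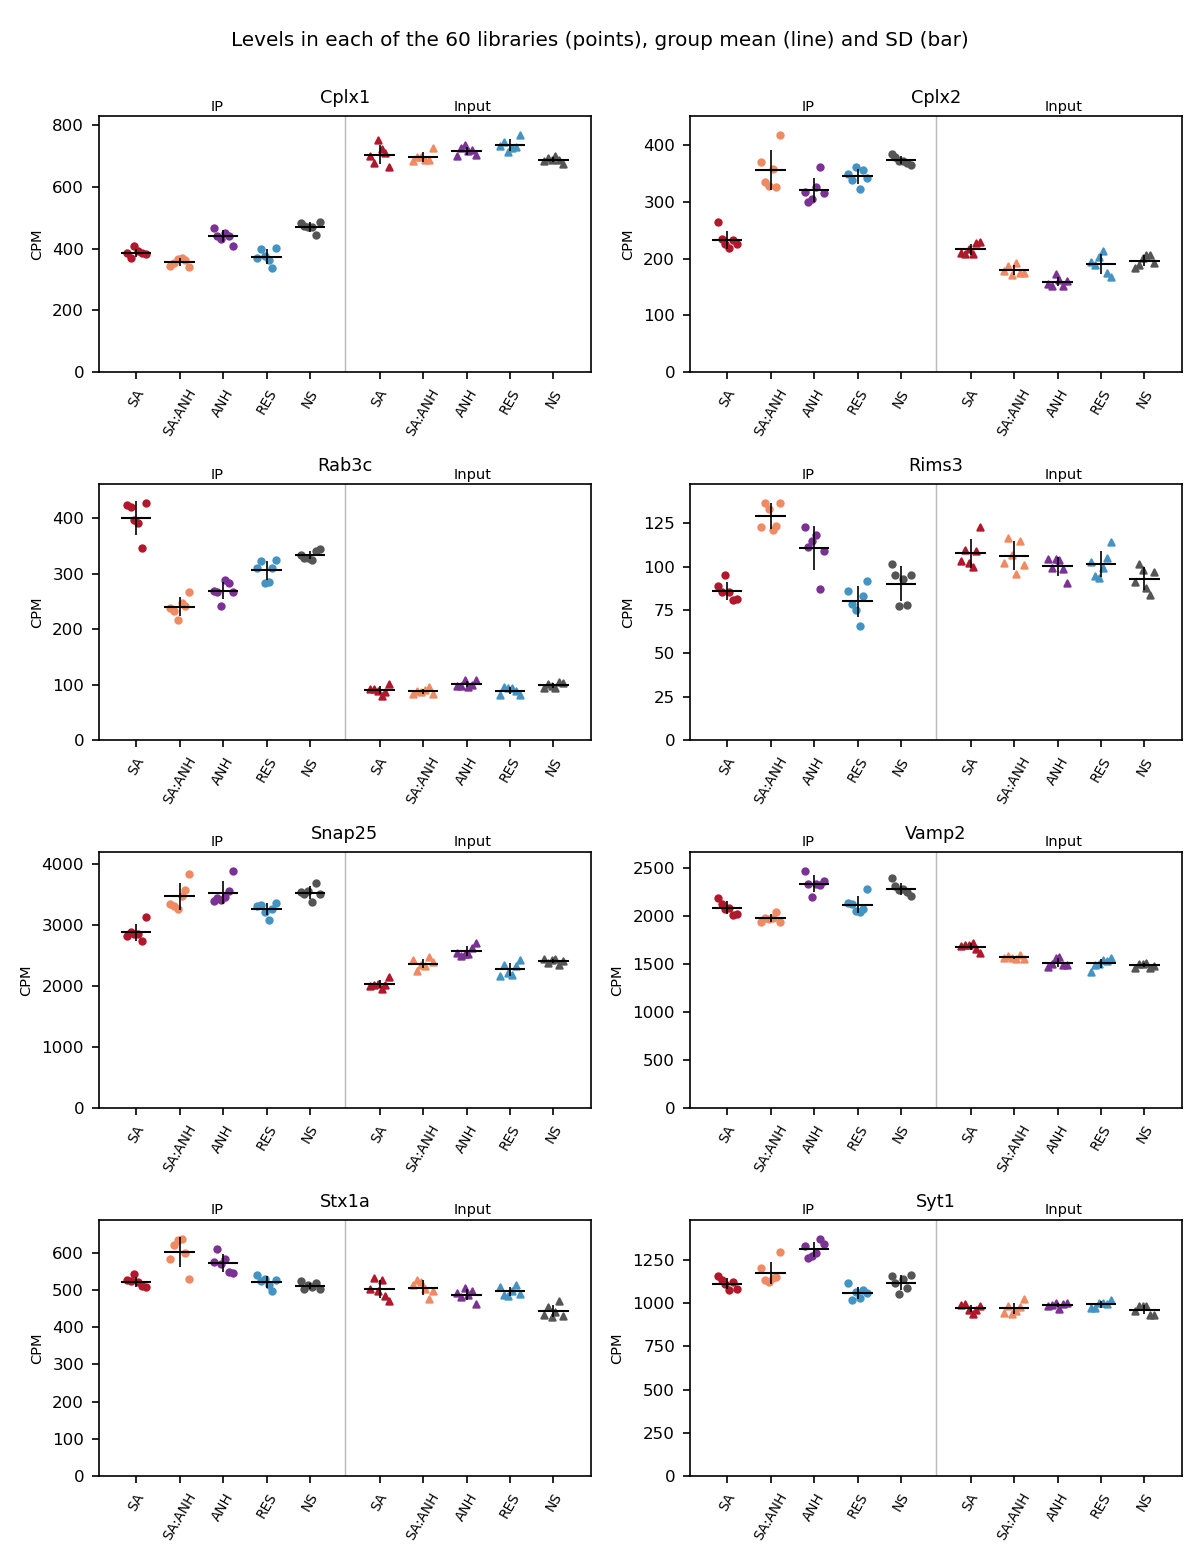
CPM (y axis, linear from 0) of 8 members in each of the 60 libraries, by subtype (x axis) with IP left of Input; points are libraries, lines group means and bars SD, n = 6. In IP, Cplx2 lies at 218 to 264 CPM in SA and 364 to 385 CPM in NS, and Rab3c at 346 to 428 CPM in SA, 216 to 268 CPM in SA:ANH and 325 to 345 CPM in NS.

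Of the syntaxin binding proteins, Stxbp6 was called in both directions in IP, higher in SA (0.35 ± 0.082, adjusted p = 0.00212) and lower in SA:ANH (-0.27 ± 0.082, adjusted p = 0.0148). Stxbp6 in IP was at 51.3 to 65.4 CPM (median 59.9) in SA, 33.7 to 44.4 (median 37.9) in SA:ANH, 32.5 to 48.4 (median 40.7) in ANH and 46.6 to 56.9 (median 52.6) in RES. Stxbp6 in the NS IP libraries was at 43.2 to 51.8 CPM (median 45.5).

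Of the calcium sensors, Syt1 (ENSMUSG00000035864.15, chromosome 10, 108333511 to 108846843) in IP was at 1076 to 1158 CPM (median 1116) in SA, 1122 to 1297 (median 1149) in SA:ANH, 1263 to 1374 (median 1310) in ANH and 1019 to 1114 (median 1061) in RES. Syt1 in the NS IP libraries was at 1051 to 1163 CPM (median 1129). The ANH libraries lay above all NS libraries, with a change of 0.22 ± 0.03, adjusted p = 4.9e-06, and SA:ANH overlapped with NS (0.095 ± 0.03, adjusted p = 0.0233), a call lost with RLE scaling, without the filter on low counts, with DESeq2 and in a fit of the 12 libraries alone. SA and RES stood at 0.014 in SA and -0.075 in RES, and in Input Syt1 was called nowhere, at 0.013 in SA, 0.012 in SA:ANH, 0.044 in ANH and 0.05 in RES. The fractions differed in ANH, by 0.19 ± 0.039, adjusted p = 0.00152. Syt2 was scarce in IP, at 1.27 to 3.13 CPM (median 2.02) in SA, 0.583 to 2.14 (median 1.11) in SA:ANH, 0.767 to 2.59 (median 1.72) in ANH and 1.78 to 5.12 (median 2.17) in RES. Syt2 in the NS IP libraries was at 1.24 to 4.24 CPM (median 2.46). Each subtype overlapped with NS. It was lower in SA:ANH in IP (-1.09 ± 0.36, adjusted p = 0.0263) and higher in RES in Input (0.81 ± 0.18, adjusted p = 0.00744), where it was at 8.19 to 13.1 (median 11.8) CPM in RES and 3.66 to 9.01 (median 6.48) CPM in NS. The SA:ANH call was lost without the filter on low counts. Its other changes were -0.33 in SA, -0.67 in ANH and -0.072 in RES in IP and 0.41 in SA, 0.17 in SA:ANH and 0.20 in ANH in Input.

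Among the synaptotagmins of dense core vesicles, Syt4 in IP was at 391 to 443 CPM (median 403) in SA, 370.4 to 442 (median 383) in SA:ANH, 374 to 427 (median 394) in ANH and 326 to 375 (median 346) in RES. Syt4 in the NS IP libraries was at 322 to 394 CPM (median 349.8). The SA libraries lay above all but the highest NS library, with overlap, and the SA:ANH and ANH libraries overlapped the upper part of the NS range. Syt4 rose in IP in SA (0.22 ± 0.044, adjusted p = 0.000429), SA:ANH (0.17 ± 0.044, adjusted p = 0.00505) and ANH (0.15 ± 0.044, adjusted p = 0.0275), with -0.028 in RES. Syt7 fell in IP in SA:ANH (-0.28 ± 0.056, adjusted p = 0.00028) and RES (-0.20 ± 0.056, adjusted p = 0.0296), with -0.036 in SA and -0.15 in ANH. In Input Syt7 fell in ANH (-0.21 ± 0.054, adjusted p = 0.0255), with 0.084 in SA, -0.11 in SA:ANH and -0.13 in RES.

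Other synaptotagmins moved in 1 subtype or a pair of subtypes. In SA in IP, Syt12 (-0.51 ± 0.092, adjusted p = 9.82e-05) and Syt13 (-0.38 ± 0.055, adjusted p = 3.39e-06), which do not bind calcium, fell without overlap, while Syt5 rose (0.16 ± 0.034, adjusted p = 0.00125). Syt12 was at 35.3 to 54.5 (median 48.8) CPM in SA, against 55.5 to 76.6 (median 67.6) CPM in NS, and Syt13 at 217 to 255 (median 244) CPM in SA, against 291 to 345 (median 321) CPM in NS. Syt17 in IP was at 149 to 179 CPM (median 166) in SA, 98.3 to 127 (median 119.5) in SA:ANH, 135 to 156 (median 142) in ANH and 147 to 169 (median 153) in RES. Syt17 in the NS IP libraries was at 152 to 189.9 CPM (median 164). It fell in SA:ANH (-0.49 ± 0.059, adjusted p = 9.41e-08), without overlap, and in ANH (-0.22 ± 0.059, adjusted p = 0.0178). Syt3 fell in SA:ANH (-0.32 ± 0.076, adjusted p = 0.00201) and ANH (-0.31 ± 0.076, adjusted p = 0.008) in IP, and Syt11, which serves vesicle recycling, fell in SA:ANH (-0.14 ± 0.026, adjusted p = 8.74e-05). In Input Syt16 rose in SA:ANH (0.19 ± 0.052, adjusted p = 0.0234) and ANH (0.24 ± 0.052, adjusted p = 0.00425), the first of which did not pass without SA:ANH Input replicates 1 and 2.

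Among the priming proteins, Rims3 (ENSMUSG00000032890.18, chromosome 4, 120712013 to 120753776), a short RIM without the Rab3-binding part, rose most in SA:ANH. Rims3 in IP was at 80.6 to 95 CPM (median 85.3) in SA, 121 to 137 (median 128) in SA:ANH, 87 to 123 (median 113) in ANH and 65.6 to 91.8 (median 80.7) in RES. Rims3 in the NS IP libraries was at 77.5 to 102 CPM (median 94.1). Rims3 in Input was at 99.8 to 123 CPM (median 106) in SA, 95.6 to 117 (median 104) in SA:ANH, 90.3 to 104 (median 101) in ANH and 93.6 to 114 (median 101) in RES. Rims3 in the NS Input libraries was at 83.6 to 102 CPM (median 94). The SA:ANH libraries lay above every NS library in IP, with a change of 0.54 ± 0.076, adjusted p = 1.25e-06, and ANH overlapped (0.29 ± 0.076, adjusted p = 0.0139), with -0.043 in SA and -0.17 in RES. In Input it rose in SA (0.21 ± 0.059, adjusted p = 0.0417) and SA:ANH (0.19 ± 0.059, adjusted p = 0.0497). The SA:ANH call in Input was lost in a fit of the 12 libraries alone and without the filter on low counts. It also did not pass without SA:ANH Input replicates 1 and 2. Rims1, Rims2 and Rims4 were called in no comparison with NS, and Rims1 stood at -0.18 in SA, 0.037 in SA:ANH, -0.12 in ANH and -0.22 in RES in IP and 0.12 in SA, -0.041 in SA:ANH, 0.056 in ANH and 0.048 in RES in Input.

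Unc13a fell in SA in IP (-0.27 ± 0.068, adjusted p = 0.0043), where it was at 91.7 to 114 (median 101) CPM in SA and 115 to 134 (median 125) CPM in NS, without overlap. It stood at -0.034 in SA:ANH, -0.097 in ANH and -0.14 in RES in IP and at 0.046 in SA, 0.05 in SA:ANH, -0.031 in ANH and -0.015 in RES in Input. The other Munc13 genes were not called in any comparison with NS.

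Rab3c, a vesicle GTPase related to Rab3a, was called in opposite directions within IP. Rab3c in IP was at 346 to 428 CPM (median 409) in SA, 216 to 268 (median 239.7) in SA:ANH, 242 to 288 (median 268) in ANH and 283 to 324 (median 310.4) in RES. Rab3c in the NS IP libraries was at 325 to 345 CPM (median 332). Rab3c in Input was at 80.4 to 101 CPM (median 89.9) in SA, 82.3 to 95.5 (median 87.3) in SA:ANH, 95.5 to 109 (median 99) in ANH and 81.2 to 95 (median 91.4) in RES. Rab3c in the NS Input libraries was at 93.4 to 104 CPM (median 99.7). In IP the SA libraries lay above, and the SA:ANH and ANH libraries below, all NS libraries. The changes were 0.29 ± 0.047, adjusted p = 2.28e-05 in SA, -0.45 ± 0.047, adjusted p = 4.53e-09 in SA:ANH and -0.32 ± 0.047, adjusted p = 1.87e-05 in ANH, with -0.12 in RES. In Input Rab3c was lower in SA:ANH (-0.18 ± 0.054, adjusted p = 0.0397), a call lost without SA:ANH Input replicates 1 and 2, with -0.14 in SA, 0.032 in ANH and -0.15 in RES. The fractions differed in SA (0.41 ± 0.072, adjusted p = 4.68e-05), SA:ANH (-0.29 ± 0.072, adjusted p = 0.00242) and ANH (-0.34 ± 0.072, adjusted p = 0.0023). In IP the sum of 7 markers of layer 5 extratelencephalic neurons was 1473 to 1638 CPM in SA, 859.8 to 949.6 in SA:ANH, 1063 to 1105 in ANH, 1232 to 1323 in RES and 1383 to 1526 in NS, and the group medians of this sum and of Rab3c had the same order. The single markers did not all follow the sum: against NS in IP, 4 of the 7 were called higher and 2 lower in SA. In SA:ANH 7 were called lower, in ANH 6 and in RES 3, with 0 higher in each. The part of this sum in the Rab3c values was not tested.

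Rab3a in IP was at 1138 to 1208 CPM (median 1191) in SA, 1080 to 1126 (median 1099) in SA:ANH, 1110 to 1176 (median 1145) in ANH and 1045 to 1110 (median 1068) in RES. Rab3a in the NS IP libraries was at 1064 to 1138 CPM (median 1106). In IP each subtype's range met or overlapped that of NS, and all SA libraries lay above all SA:ANH and RES libraries. Rab3a rose in SA in IP (0.13 ± 0.025, adjusted p = 0.000447) and in Input (0.12 ± 0.027, adjusted p = 0.00746), and in RES in Input (0.13 ± 0.027, adjusted p = 0.00413). The rest did not pass, with 0.023 in SA:ANH, 0.049 in ANH and -0.034 in RES in IP and 0.043 in SA:ANH and 0.02 in ANH in Input. Rab3b rose in SA in IP (0.33 ± 0.086, adjusted p = 0.00583), at 40.8 to 49.8 (median 46.2) CPM in SA and 32 to 42.9 (median 36.8) CPM in NS, and Rab3d was called in no comparison with NS.

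Of the synapsins, Syn2 in IP was at 1418 to 1518 CPM (median 1466) in SA, 1346 to 1515 (median 1399) in SA:ANH, 1543 to 1660 (median 1582) in ANH and 1263 to 1426 (median 1367) in RES. Syn2 in the NS IP libraries was at 1300 to 1465 CPM (median 1377). Of the 4 subtypes only the ANH libraries all lay above every NS library. Syn2 rose in IP in SA (0.11 ± 0.029, adjusted p = 0.0102) and ANH (0.20 ± 0.029, adjusted p = 1.89e-05), with 0.05 in SA:ANH and -0.021 in RES. The SA call was lost without the filter on low counts. In Input it stood at -0.055 in SA, 0.018 in SA:ANH, -0.00083 in ANH and -0.005 in RES. Syn1, the X-linked synapsin, was not called in any comparison with NS, at -0.11 in SA, -0.13 in SA:ANH, 0.10 in ANH and -0.11 in RES in IP and 0.061 in SA, 0.061 in SA:ANH, 0.072 in ANH and 0.031 in RES in Input. Syn3 was not called either, at -0.10 in SA, -0.02 in SA:ANH, 0.24 in ANH and 0.21 in RES in IP and -0.17 in SA, 0.08 in SA:ANH, 0.11 in ANH and -0.13 in RES in Input. The span of each synapsin gene holds a Timp gene on the opposite strand. Whether their exons overlap was not checked, and reads of any shared exon could not be assigned without a strand setting.

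Whether a subtype's difference from NS was unlike in the fractions was tested in the fit of all 60 libraries. In SA 19 of 65 members differed (6 with the higher value in IP and 13 with the lower), beside 9.05% of all 18937 genes (4.49% higher and 4.55% lower). SA:ANH had 16 members (1 higher and 15 lower), beside 15.2% (7.14% higher and 8.06% lower). ANH had 5 (2 higher and 3 lower), beside 3.62% (1.77% higher and 1.85% lower). RES had 5 (1 higher and 4 lower), beside 2.69% (1.41% higher and 1.28% lower). Beyond the members given above, Syn1 had -0.19 ± 0.061, adjusted p = 0.0347 in SA and -0.22 ± 0.061, adjusted p = 0.00689 in SA:ANH. Unc13a had -0.34 ± 0.09, adjusted p = 0.00752 and Rims1 -0.32 ± 0.097, adjusted p = 0.0266 in SA. Syn2 had 0.14 ± 0.039, adjusted p = 0.0141 in SA and 0.21 ± 0.039, adjusted p = 0.000352 in ANH. Syt17 had -0.46 ± 0.088, adjusted p = 7.06e-05 and Syt2 -1.28 ± 0.39, adjusted p = 0.0167 in SA:ANH, where Syt11 had -0.17 ± 0.035, adjusted p = 0.000307. Syt3 had -0.37 ± 0.10, adjusted p = 0.0263 in ANH, and Rab3a -0.16 ± 0.035, adjusted p = 0.00337 and Rab3b 0.30 ± 0.088, adjusted p = 0.0444 in RES. Stx1a had -0.15 ± 0.047, adjusted p = 0.0332 in SA. Of the SA calls, Stx1a, Syn1, Rims1, Vamp8 and Snap91 did not pass without the filter on low counts. Of the others, Stxbp6, Syt16 and Stx6 in SA:ANH and Vamp2 and Rab3b in RES did not pass without it. Snap91 in SA and Vamp2 in RES did not pass with RLE scaling either.

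Core members whose fractions were not shown to differ ran widest for the scarce Syt2, at -0.75 in SA, -0.86 in ANH and -0.88 in RES. Snap25 stood at -0.05 in SA, where it fell in both fractions, and Syt7 at -0.20 in SA:ANH. Vamp1 stood at -0.26 in SA and 0.15 in SA:ANH, and Syn3 at 0.14 in ANH and 0.34 in RES. Rims1 stood at -0.26 in RES.

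The 3 other subtypes were also set against RES in IP, which again share the 6 RES libraries. SA had 11 of 61 members called (7 higher and 4 lower), beside 11.6% of all genes (6.83% higher and 4.8% lower). SA:ANH had 11 (6 higher and 5 lower), beside 13.8% (8.21% higher and 5.61% lower). ANH had 17 (14 higher and 3 lower), beside 9.21% (3.78% higher and 5.43% lower). In SA, Stxbp2 (0.46 ± 0.13, adjusted p = 0.0153) and Rab3c (0.41 ± 0.047, adjusted p = 6.91e-08) led the rises, followed by Syt4 (0.25), Rims2 (0.22), Syt7 (0.17), Rab3a (0.16) and Syn2 (0.13). The Syt7 call was lost with RLE scaling, without the filter on low counts, with DESeq2 and in a fit of the 12 libraries alone, and the Rims2 call with RLE scaling and without the filter. Cplx2 (-0.55 ± 0.049, adjusted p = 2.75e-10) led the falls, followed by Syt12 (-0.34), Syt13 (-0.27) and Snap25 (-0.16), and the other core members lay between -0.31 for Syn3 and 0.089 for Syt1. In SA:ANH, Rims3 (0.71 ± 0.076, adjusted p = 1.4e-08) led the rises, followed by Rims1 (0.25), Stx1a (0.23), Syt4 (0.20), Syt1 (0.17) and Snap25 (0.11). The Snap25 call was lost without the filter and in a fit of the 12 libraries alone. Stxbp6 (-0.42 ± 0.082, adjusted p = 0.000313) and Syt17 (-0.39 ± 0.059, adjusted p = 9.74e-06) led the falls, followed by Rab3c (-0.33), Syt11 (-0.091) and Vamp2 (-0.08), and the other core members lay between -1.02 for Syt2 and 0.11 for Vamp1.

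Against RES in IP, the rises in ANH were spread over SNAREs and vesicle proteins, with Stx4a at 1.07 ± 0.21, adjusted p = 0.000709, Stxbp5l at 0.56 ± 0.11, adjusted p = 0.00089, Rims3 at 0.46 ± 0.076, adjusted p = 8.44e-05 and Syt1 at 0.30 ± 0.03, adjusted p = 1.5e-08. Stx1a (0.12), Snap25 (0.10), Vamp2 (0.13), Cplx1 (0.22), Syn1 (0.21), Rab3a (0.084), Snap91 (0.20), Syt4 (0.18) and Syn2 (0.22) rose as well, and Stxbp6 (-0.35 ± 0.082, adjusted p = 0.00484), Stx8 (-0.31 ± 0.077, adjusted p = 0.00755) and Rab3c (-0.19 ± 0.047, adjusted p = 0.00587) fell. Of the 17 calls of ANH against RES, those of Stx1a, Snap25 and Rab3a were lost without the filter on low counts. Of the core members not called in that comparison, Cplx2 stood at -0.12, Syt7 at 0.051, Unc13a at 0.048, Syt2 at -0.60, Vamp1 at -0.056, Syn3 at 0.035 and Rims1 at 0.095. The 8 oligodendrocyte markers summed to 661 to 694 CPM in ANH and 958 to 1075 CPM in RES, and their part was not tested.

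Ratios between related members do not depend on the library scaling, and 5 were compared with NS in each subtype and fraction by a two-sided exact permutation test, 40 tests in all, of which 14 passed after Benjamini-Hochberg adjustment, 11 of them in the 4 pairs given here. With 6 libraries against 6 the smallest p is 0.00216. The log2 ratio of Cplx2 to Cplx1 in IP averaged -0.73 ± 0.12 in SA and -0.33 ± 0.048 in NS (SD, n = 6), a difference of -0.40, p = 0.00216, adjusted p = 0.0108 by the exact test. In SA:ANH the same ratio averaged -0.0058 ± 0.18, a difference of 0.33, p = 0.00216, adjusted p = 0.0108, and in RES -0.12 ± 0.12, a difference of 0.22, p = 0.00216, adjusted p = 0.0108 (exact permutation tests). The ratio of the complexins lay below NS in SA and above NS in SA:ANH and RES, without overlap in any of the 3. In Input the ratio was lower in ANH (-0.36, p = 0.00216, adjusted p = 0.0108) and SA:ANH (-0.15, p = 0.00866, adjusted p = 0.0266) by the exact test.

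The ratio of Syn1 to Syn2 in IP was lower in SA (-0.21, p = 0.00216, adjusted p = 0.0108), SA:ANH (-0.18, p = 0.00216, adjusted p = 0.0108) and ANH (-0.093, p = 0.00433, adjusted p = 0.0157), and in Input higher in SA (0.12, p = 0.00433, adjusted p = 0.0157), by the exact test. The ratio of Syt1 to Syt2 was higher in SA:ANH in IP (1.17, p = 0.013, adjusted p = 0.0371) and lower in RES in Input (-0.80, p = 0.00433, adjusted p = 0.0157), by the exact test. No comparison passed for Vamp2 to Vamp1, whose largest difference was -0.38, p = 0.0216, adjusted p = 0.0541 in SA:ANH in IP by the exact permutation test.

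**Figure D4:**
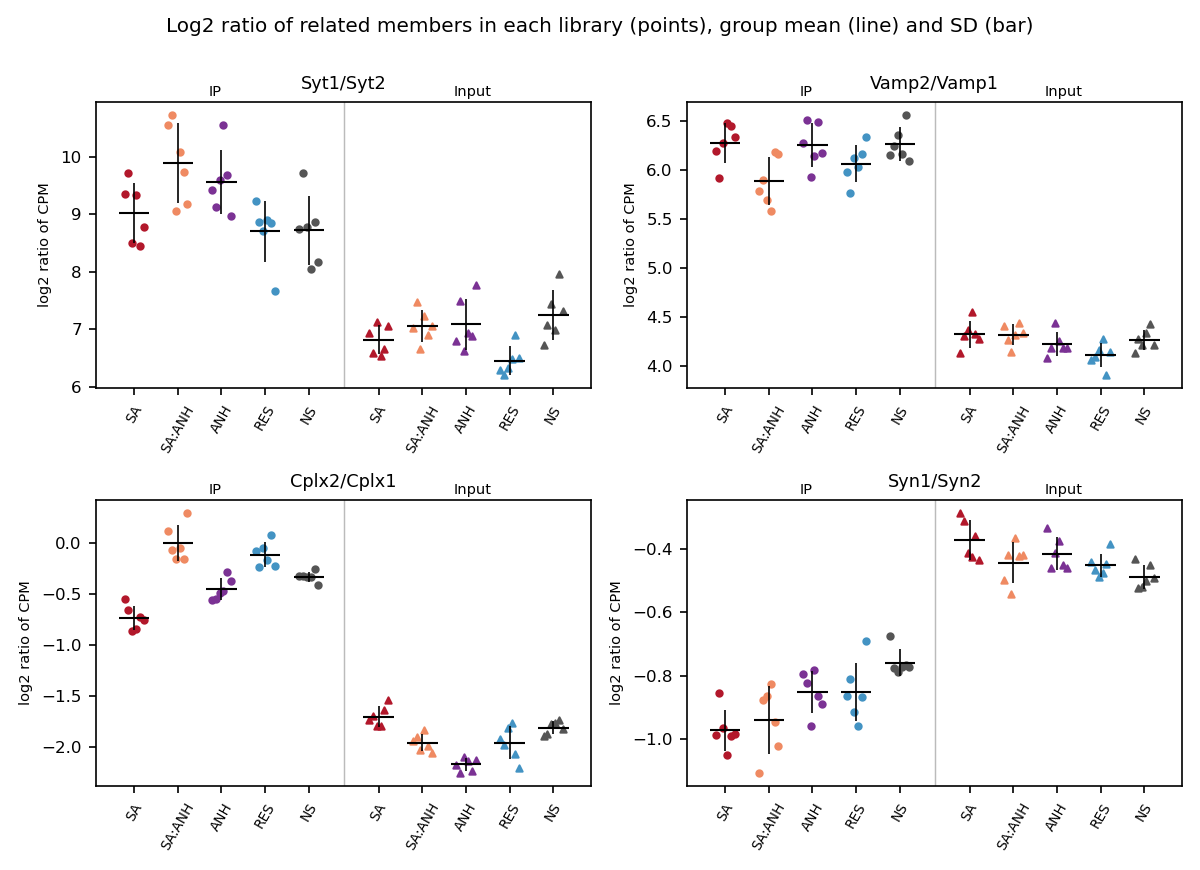
Log2 ratio of CPM (y axis) of 4 pairs of related members in each of the 60 libraries, by subtype (x axis) with IP left of Input; points are libraries, lines group means and bars SD, n = 6. The Cplx2/Cplx1 ratio in IP averages -0.73 in SA and -0.33 in NS, and both Syt1/Syt2 and Vamp2/Vamp1 are higher in IP than in Input.

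Genes of the vesicle cycle outside the 68 were read from 3 lists. Of 12 vesicle membrane genes, 8 were higher in IP than in Input and 4 lower, beside 75.4% of all genes called in either direction. Of 17 genes of SNARE recycling and the active zone 13 were higher and 4 lower, and of 14 endocytosis genes 8 were higher and 3 lower. Against NS in IP, SA had 1 of the 12 vesicle membrane genes higher and 3 lower, 1 of the 17 recycling and active zone genes higher and 4 lower, and 3 of the 14 endocytosis genes higher and 1 lower, beside 16.6% of all genes called. SA:ANH had 1 of the 12 higher and 6 lower, 1 of the 17 higher and 6 lower, and 2 of the 14 higher and 3 lower, beside 19.7% of all genes. The medians in SA:ANH were -0.19, -0.14 and -0.028 in the same order, beside 0.011 over all genes. ANH had 1 of the 12 higher and 0 lower, 2 of the 17 higher and 2 lower, and 1 of the 14 higher and 2 lower, beside 7.4%. RES had 1 of the 12 higher and 1 lower, 0 of the 17 higher and 2 lower, and 0 of the 14 higher and 2 lower, beside 4.36%. Synpr, a vesicle membrane protein of the synaptophysin family, rose in IP by 0.81 ± 0.071 in SA, 0.51 ± 0.071 in SA:ANH, 0.77 ± 0.071 in ANH and 0.44 ± 0.071 in RES. Dnm1, the dynamin of synaptic endocytosis, stood at -0.33 ± 0.044, -0.23 ± 0.044, -0.18 ± 0.044 and -0.15 ± 0.044 in the same order. Cadps2, a dense core vesicle priming protein, fell in SA:ANH (-0.85 ± 0.09), ANH (-0.59 ± 0.089) and RES (-0.38 ± 0.089) in IP. In Input at most 4 genes of any of the 3 lists were called in a subtype, among them Napa, a SNARE recycling factor, higher in SA:ANH (0.15 ± 0.027) and RES (0.13 ± 0.027).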

How the data were processed

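The authors deposited 1 table of expected counts per gene for 60 libraries with a Gene Length column, and 88.4% of its values were whole within 1e-06. Reads were handled with Trimmomatic 0.32, TopHat2 2.0.13 and Bowtie2 2.2.3 on mm10, per the submitters' processing notes. On the counting tool, its strand setting and the treatment of reads shared between genes, nothing is given in the sources used here.

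Expected counts were rounded to whole numbers and analysed with edgeR 4.0.16 (limma 3.58.1) in R 4.3.3, with TMM scaling, filterByExpr at a minimum count of 10 and the quasi-likelihood test, in 3 fits of the 30 IP, the 30 Input and all 60 libraries, which tested 16670, 18170 and 18937 genes. P-values were adjusted by Benjamini-Hochberg over all genes of a fit, with a threshold of 0.05. CPM use the TMM factors of the 60-library fit, and each SE is the log2 fold change divided by the root of its F statistic. Ratios are differences of log2 CPM with a prior count of 2, tested by exact permutation in scipy 1.17.1 under Python 3.11.15. The edgeR fit was tested on simulated data. Alternatives were RLE scaling, DESeq2 1.42.0, no filter, fits of the 12 libraries compared, a replicate block, a prior count of 0.5 and, chosen after the data were seen, leaving out 2 Input libraries of a group.

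Replicate numbers were taken as names and not as pairs in the main fits. Same-numbered libraries did not deviate together in all pairs, but that check cannot decide whether the numbers pair the samples. The replicate block was therefore run as an alternative. The members, the 17 core members described in every comparison, the 3 pathway lists and the marker lists were chosen with earlier results of these data known. Beyond the core, the 5 largest rises and falls per comparison among called members with a mean of at least 10 CPM in the higher group were named, or the 5 smallest adjusted p for interactions and tests over all groups. Other called members were named to account for each. Of the pathway genes outside the members, at most the 2 largest changes in a direction were to be named per comparison. The values of 2 members, and of 1 ratio, are not reported here, but they remain in the counts.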

Additional observations from a re-analysis of the deposited data

Results flagged for a closer look

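Of 380 sets of 6 libraries (38 members in 10 groups), 22 held a library far from the other 5, where chance flags about 1 in 20 groups. Of the SNARE and complexin genes, libraries above the rest of their group were Cplx1 at 725 CPM in SA:ANH Input replicate 6 (683 to 698 CPM in the others), Cplx2 at 264 CPM in SA IP replicate 1 (218 to 234 CPM in the others) and Snap25 at 3132 CPM in SA IP replicate 6 (2730 to 2879 CPM in the others). Further such values were Snap25 at 3888 CPM in ANH IP replicate 6 (3397 to 3550 CPM in the others), Stx4a at 46.8 CPM in SA:ANH IP replicate 1 (17.8 to 24.5 CPM in the others) and Stx8 at 58.4 CPM in SA:ANH IP replicate 4 (51.2 to 52.5 CPM in the others). The last of these were Stxbp5l at 28.9 CPM in NS IP replicate 1 (19.4 to 22.4 CPM in the others) and Vamp1 at 102 CPM in RES Input replicate 5 (79.6 to 87.9 CPM in the others). Of the SNARE and complexin genes, libraries below the rest of their group were Stx4a at 27.1 CPM in ANH IP replicate 6 (39 to 44.1 CPM in the others) and Vamp1 at 71.6 CPM in ANH Input replicate 3 (81.8 to 87 CPM in the others). Of the synaptotagmin genes, libraries above the rest of their group were Syt12 at 74.6 CPM in ANH IP replicate 2 (59.6 to 62.9 CPM in the others), Syt2 at 5.12 CPM in RES IP replicate 6 (1.78 to 2.47 CPM in the others) and Syt3 at 134 CPM in ANH Input replicate 5 (118 to 123 CPM in the others). Further such values were Syt4 at 443 CPM in SA IP replicate 6 (391 to 408 CPM in the others), Syt4 at 166 CPM in RES Input replicate 6 (145 to 151 CPM in the others) and Syt5 at 496 CPM in SA Input replicate 2 (456 to 468 CPM in the others). Of the synaptotagmin genes, libraries below the rest of their group were Syt16 at 187 CPM in ANH IP replicate 5 (195 to 199.7 CPM in the others) and Syt5 at 524 CPM in SA IP replicate 1 (558 to 577 CPM in the others). Of the Rab3, synapsin and Munc13 genes, libraries above the rest of their group were Rab3b at 44.9 CPM in SA:ANH IP replicate 6 (36.9 to 39.8 CPM in the others), Syn1 at 839.9 CPM in SA IP replicate 2 (705 to 753 CPM in the others) and Unc13a at 145 CPM in RES IP replicate 6 (97.3 to 114 CPM in the others). Further such values included Unc13c at 8.01 CPM in SA IP replicate 3 (2.75 to 4.24 CPM in the others).

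Over the 4 subtypes, 24 differences between IP and Input in the log2 change over NS are listed here. They passed by the interaction term of edgeR's fit of all 60 libraries. The list is not complete, since it was drawn only from core members and those with the smallest adjusted p in that subtype. Other calls were left out, among them Rab3c in SA:ANH and Snap91 in SA and SA:ANH. In SA the IP change was the lower for Cplx1 (-0.31), Cplx2 (-0.82), Rims1 (-0.32), Stx1a (-0.15), Syn1 (-0.19), Unc13a (-0.34) and Vamp2 (-0.31), and the higher for Rab3c (0.41) and Syn2 (0.14). In SA:ANH the IP change was the lower for Cplx1 (-0.42), Syn1 (-0.22), Syt11 (-0.17), Syt17 (-0.46), Syt2 (-1.28) and Vamp2 (-0.29). In ANH the IP change was the lower for Cplx1 (-0.16), Rab3c (-0.34) and Syt3 (-0.37), and the higher for Syn2 (0.21) and Syt1 (0.19). In RES the IP change was the lower for Cplx1 (-0.43), Rab3a (-0.16) and Vamp2 (-0.13), and the higher for Rab3b (0.30). No cause of these differences was tested.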

How the results depend on the processing

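Of 189 named results tested in edgeR, 185 kept their direction and side of the threshold with DESeq2, 181 with RLE scaling, 158 without the filter on low counts and 187 with the replicate block, as did 104 of 110 in fits of the 12 libraries compared. The difference of Rab3a between IP and Input turned to -0.021 with RLE scaling and to -0.021 with DESeq2, and passed with neither. Without the filter, which left more genes to adjust over, 2 members were called in RES against NS in IP (5 with it), 3 in SA:ANH (6) and 3 in RES (5) against NS in Input, and 3 in RES (5) for the difference between fractions. With DESeq2, RES against NS in IP had 9 calls, 2 higher and 7 lower. In a fit of 12 libraries, SA:ANH against NS in Input had 3 calls. Without the 2 Input libraries of its own that lay farthest from NS along the first component, SA:ANH had 2 calls and ANH 3 (6 with them). These fits had fewer samples, and leaving out only libraries far from NS itself favours fewer calls. The cause of the other changes was not tested. A prior count of 0.5 changed no call of a ratio. For these alternatives the share of all genes called is not given, so their counts of members have no baseline.

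Same-numbered libraries deviated with correlations of -0.054 to 0.324 in 30 pairs of IP and Input, 10 of them over 0.1. Between same-numbered libraries of different groups, 18 of 60 pairs in IP and 20 of 60 in Input were over 0.1. Pairs of unequal number were not compared across fractions, so these values cannot decide whether the numbers pair the samples. With the replicate block 56 members were called between IP and Input, 18 in SA, 16 in SA:ANH, 12 in ANH and 7 in RES against NS in IP. The share of all genes called with the block is not given. Under the block the differences between fractions in SA of Rims1 (-0.32) and Vamp8 (1.35) did not pass.

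Counts limit what the scarce members show: Cplx4, Syt8 and Stx19 were not detectable above the filter at this depth, and Syt2 had a median of 2.08 CPM in IP. Every comparison with NS in a fraction rests on the same 6 NS libraries, and which cells the RNA came from was read from marker sums alone. The spans of some members overlap those of other genes on the opposite strand (Vamp1 with Tapbpl, the synapsins with Timp genes). On the same strand, the spans of Syn2 and Gm17482, of Vamp3 and Camta1 and of Syt1 and Gm5136 overlap. Whether exons are shared was not checked, and reads of any shared exon cannot be told apart.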
